A study of Mus musculus with 6 samples.

Results

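Cytosolic ribosomal proteins are the protein components of the ribosome that translates nuclear-encoded messenger RNAs. Their genes were taken from the gene table by symbol, as Rpl or Rps followed by a number and at most a letter and a digit, together with Rplp0, Rplp1, Rplp2 and Rpsa, and without pseudogene symbols. This gave 83 of 22298 genes, 51 of the large subunit and 32 of the small subunit. The symbol rule also takes near copies such as Rpl22l1 and Rps27l, and does not take Fau, Rack1 and Rpl36al, which are described separately. The genes were measured by poly(A)-selected bulk RNA sequencing of liver sinusoidal endothelial cells, the fenestrated cells that line the capillaries of the liver, from wild-type mice. There were 3 libraries titled control (replicates 1, 2 and 3) and 3 titled aging (replicates 2, 3 and 5). The age field goes against the titles, with 24 months for the control libraries and 8 weeks for the aging libraries. Groups below are therefore those of the titles, every difference is aging relative to control, and the age of either group is unsettled. No treatment is named for either group, and nothing says that each library came from its own mouse, so a p-value reflects only how these libraries spread, which may be technical.

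In each ribosome the ribosomal proteins are present in about equal number, and cells keep their synthesis in balance. In vertebrates the messenger RNAs of nearly all of them start with a run of pyrimidines, the 5′ terminal oligopyrimidine (TOP) tract. Through it the kinase complex mTORC1 and the RNA-binding protein LARP1 set how much of each message is translated, a step that RNA levels do not show. The genes are transcribed at high levels in almost every cell.

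The start regions of 8 of the genes are shown as examples of starts with and without a pyrimidine run, from genes described below and pairs of near copies. Each line gives 30 bases before and 20 bases from the annotated start in RefSeq (GRCm38.p6), and capitals mark a run of at least 8 pyrimidines that overlaps the window from 10 bases before to 20 bases after that start.
Rps6: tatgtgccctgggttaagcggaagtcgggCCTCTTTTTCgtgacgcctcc
Rpl15: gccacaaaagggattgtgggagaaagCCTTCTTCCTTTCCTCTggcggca
Rps9: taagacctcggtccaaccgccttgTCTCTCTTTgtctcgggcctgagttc
Rpl37: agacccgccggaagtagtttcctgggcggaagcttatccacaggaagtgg
Rps27: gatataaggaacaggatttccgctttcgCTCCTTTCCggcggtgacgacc
Rps27l: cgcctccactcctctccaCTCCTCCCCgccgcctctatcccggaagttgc
Rpl22: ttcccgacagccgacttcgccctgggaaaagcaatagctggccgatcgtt
Rpl22l1: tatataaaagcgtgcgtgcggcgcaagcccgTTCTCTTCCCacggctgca
These windows are chr4:86857348-86857397 (minus strand) for Rps6, chr14:18270967-18271016 (minus strand) for Rpl15 and chr7:3704011-3704060 (plus strand) for Rps9. They are chr15:5116583-5116632 (plus strand) for Rpl37, chr3:90213629-90213678 (minus strand) for Rps27 and chr9:66946056-66946105 (plus strand) for Rps27l. Rpl22 lies at chr4:152325696-152325745 and Rpl22l1 at chr3:28805478-28805527, both on the plus strand. Rpl15 has the longest run of the 8, with 17 pyrimidines, and the windows of Rpl37 and Rpl22 hold no such run.

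Of the 83 genes, 63 matched the RefSeq promoter table by symbol or gene ID. A run of at least 8 pyrimidines overlapped the start window given above in 28 of the 63 (44.4%), against 16.7% of the 27025 genes of that table. Such a run can lie wholly before the annotated start, as in Rps27l. Shorter runs, and runs at starts other than the annotated one, were not counted. The 44.4% is therefore not the share of genes with a TOP tract. In the 300 bases from 250 before to 50 after the start, searched on both strands, CCGGAAG, a sequence bound by ETS factors such as GABP, was found in 25 of 63 (39.7%) against 9.12% of all genes. AAGATGGC, the core of YY1 sites, was found in 5 (7.94%) against 2.88%. GGGCGG, the GC box, was found in 38 (60.3%) against 35.9%, and TATAAA in 6 (9.52%) against 14.2%. None of these motifs contains another. A match is a description of the letters in the window.

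All 6 libraries had similar depth, with 15999220 to 17871220 counts. Markers of sinusoidal endothelium were abundant as a sum in every library. The 9 of 10 listed genes that were in the table summed to 21871 to 27272 CPM (counts per library scaled to the same depth) in control and 22294 to 25981 CPM in aging. Among them Lyve1 stood at 551, 629 and 662 CPM in control and at 244, 67.7 and 462 CPM in aging, without overlap. Its log2 fold change was -1.25 ± 0.60 (SE; edgeR adjusted p = 0.207). The others ran from -0.31 for Oit3 to 0.33 for Gpr182, and none of the 9 passed. The 11 neutrophil markers summed to 239 to 530.0 CPM in control and 1629 to 4664 CPM in aging, and 7 of the 11 passed the edgeR test upward with all libraries included. The 8 B and plasma cell markers summed to 61.5 to 145 CPM in control and 141 to 779 CPM in aging, with 3 passing upward. The 7 stellate cell markers summed to 44.5 to 55.2 CPM in control and 23.4 to 27.7 CPM in aging, with 3 passing downward. The 8 hepatocyte markers summed to 690.5 to 858 CPM in control and 630.3 to 735 CPM in aging. Pck1, Tat and Fabp1 passed downward. Alb, Apoa1, Ttr, Serpina1c and Cyp2e1 did not pass, with log2 fold changes of 0.03, 0.12, -0.0037, -0.63 and -0.29. The 8 T and NK cell markers summed to 41.7 to 101 CPM in control and 27.2 to 56.0 CPM in aging. Of these Cd8a passed upward. The others did not pass and lay on both sides of 0, with log2 fold changes from -1.28 for Gzma to 1.39 for Cd3e. The 7 macrophage markers summed to 1086 to 1669 CPM in control and 707 to 1829 CPM in aging. The 7 erythroid markers summed to 102 to 213 CPM in control and 56.35 to 142 CPM in aging. No tested marker of these 2 lists passed. No marker of the neutrophil, macrophage, B and plasma cell, stellate, hepatocyte or T and NK cell lists stood at 0 in any library. The part of these other cells in the differences below was not tested, and in bulk RNA fewer cells of a type and less RNA per cell cannot be told apart.

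Between 1.49% and 1.66% of all counts came from the 83 genes. Their summed level was 15878, 15304 and 15308 CPM in control replicates 1, 2 and 3, and 14995, 15067 and 15948 CPM in aging replicates 2, 3 and 5. The groups overlapped, with control replicate 1 and aging replicate 5 the highest of each. The group means were 15497 ± 330.3 and 15337 ± 531 CPM (SD, n = 3 per group), a difference of -160.3 CPM with p = 0.6 in a two-sided exact permutation test, where 3 libraries against 3 cannot give a p below 0.1. The large-subunit genes summed to 1.42, 1.44 and 1.45 times the small-subunit genes in control and to 1.41, 1.42 and 1.39 times in aging. This ratio did not separate the groups either (two-sided exact permutation test, p = 0.2).

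Levels of different genes were compared per length, with the FPKM of the authors (fragments relative to gene length and to library depth). The 80 genes with enough counts to be tested had mean FPKM from 23.4 to 631, a 26.99-fold range, and 68 of them lay between 100 and 450. The highest was Rps24, a small-subunit protein, with 675, 656 and 636 FPKM in control and 602, 581 and 636 FPKM in aging. Rps6, the small-subunit protein phosphorylated by S6 kinases downstream of mTORC1, had 563, 520 and 517 FPKM in control and 497, 523 and 578 FPKM in aging. The small-subunit genes Rps14, Rps15 and Rps27 followed, with mean FPKM of 462, 431 and 426, and the libraries of each of these 3 genes overlapped those of the others. The libraries of Rps24 all lay above those of Rps6. Per kilobase of coding sequence Rpl41, a very short large-subunit protein, was highest at 1788 CPM per kilobase, and Rps24 came next at 852; by FPKM Rpl41 ranked 43 of 80 from the lowest, with a coding sequence of 75 bases and 558 bases implied by its FPKM. By FPKM the large-subunit genes reached up to a mean of 423 for Rpl13a.

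At the low end stood Rpl7l1, a relative of Rpl7, with 18.5, 26.2 and 21.2 FPKM in control and 23.8, 24.3 and 26.3 FPKM in aging. Rps20 had 37.6, 33.6 and 30.2 FPKM in control and 33.2, 33.2 and 31.9 FPKM in aging. Rpl22l1, the near copy of Rpl22, had 41.6, 37.4 and 33.7 FPKM in control and 40.6, 31.5 and 46.5 FPKM in aging. Rps27l, the near copy of Rps27 and a known p53 target, had a mean of 42.1 FPKM. The place of Rps20 rested on the length behind the FPKM: its counts and FPKM imply 3703 bases, while its coding sequence has 357. Per kilobase of coding sequence it ranked 35 of 80 from the lowest, at 345 CPM per kilobase, and the 3 lowest places were held by Rpl22l1, Rpl7l1 and Rps27l. The order of the genes was close to the same in both groups, with a Spearman coefficient of 0.99 between the group means across the 80 genes, which share their libraries.

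**Figure D1:**
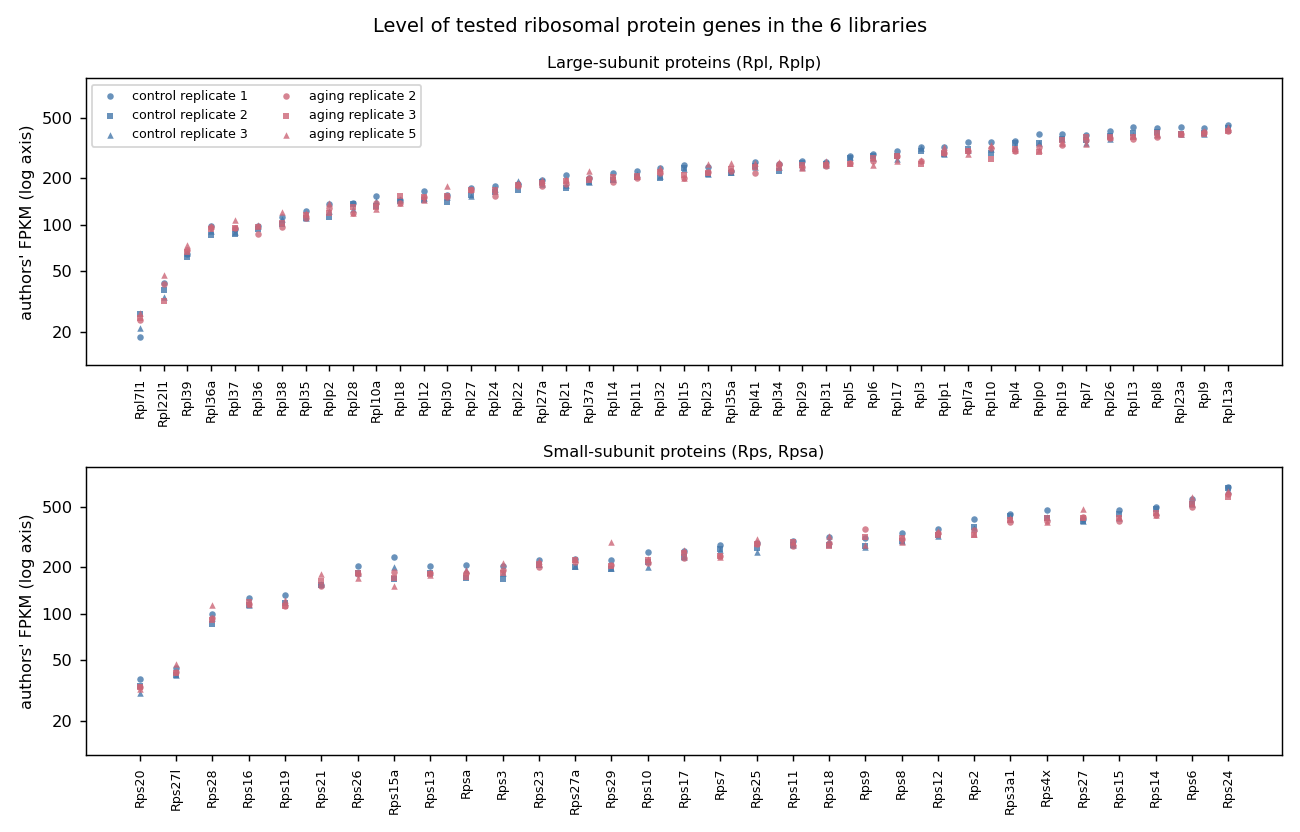
FPKM of the authors on a log axis for 78 of the 80 tested genes, ordered by mean within the large subunit (top) and the small subunit (bottom), with 1 point per library. Most genes lie between 100 and 450 FPKM with the 6 libraries close together, and Rpl7l1, Rpl22l1, Rps20 and Rps27l stand lowest.

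Of the 83 genes 3 were left untested for lack of counts. Rpl39l, the near copy of Rpl39 known for its expression in testis, had 1, 3 and 3 counts in control and 0, 0 and 1 in aging. Rpl3l, known from heart and skeletal muscle, had a single count, in aging replicate 2. Rpl10l, known from testis, had no count in any library, and 0 of all counts allows up to 0.0294 CPM, for counting error only.

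The comparison of the groups asks whether the RNA levels of ribosomal protein genes differ between these cells. None of the 80 tested genes passed in either direction at a Benjamini-Hochberg adjusted p under 0.05 in edgeR's quasi-likelihood test over all 13096 tested genes. In the same test 12.8% of all tested genes passed, 7.22% higher and 5.59% lower, and 15.1% of the 6954 genes at or above the mean CPM of the lowest of the 80, which is 20.8. With upper-quartile factors 45.9% of all calls were higher in aging, against 56.4%, and none was a ribosomal protein. The calls over all genes fell from 946 higher and 732 lower to 146 and 122 without control replicate 2, to 273 and 185 without control replicate 3, to 380 and 284 without control replicate 1, and to 518 and 342 without aging replicate 3. No ribosomal protein was called in any of these fits. At an unadjusted p under 0.05 there was 1 of the 80, Rpl3, against 31.3% of all tested genes. DESeq2 called 0 of the genes too, and limma on log2(FPKM + 1) called 1, which was Rpl3. In the authors' deposited table none had an FDR under 0.05, the lowest being 0.247 for Rpl15, while 3186 genes of that table did.

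The differences were small. The log2 fold changes ran from -0.23 for Rpl3 to 0.24 for Rps29, with a median of 0.01, beside -0.01 over all tested genes. Of the 80, 46 lay above 0 and 34 below, a balance that turned with the scaling, since the median was -0.03 with upper-quartile or total-count factors (all tested genes -0.05). Their median absolute log2 fold change was 0.06, against 0.23 over all tested genes and 0.18 over the 6954 genes at or above the lowest of them. Neither wider set was matched to the level of the 80 genes. The standard errors were 0.07 to 0.16, and the 95% interval of the fold stayed within 1.3-fold either way for 73 genes, within 1.5-fold for 79 and within 2-fold for all 80. The gene outside 1.5-fold was Rps29. The large-subunit and small-subunit genes had medians of 0.01 and 0.02.

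**Figure D2:**
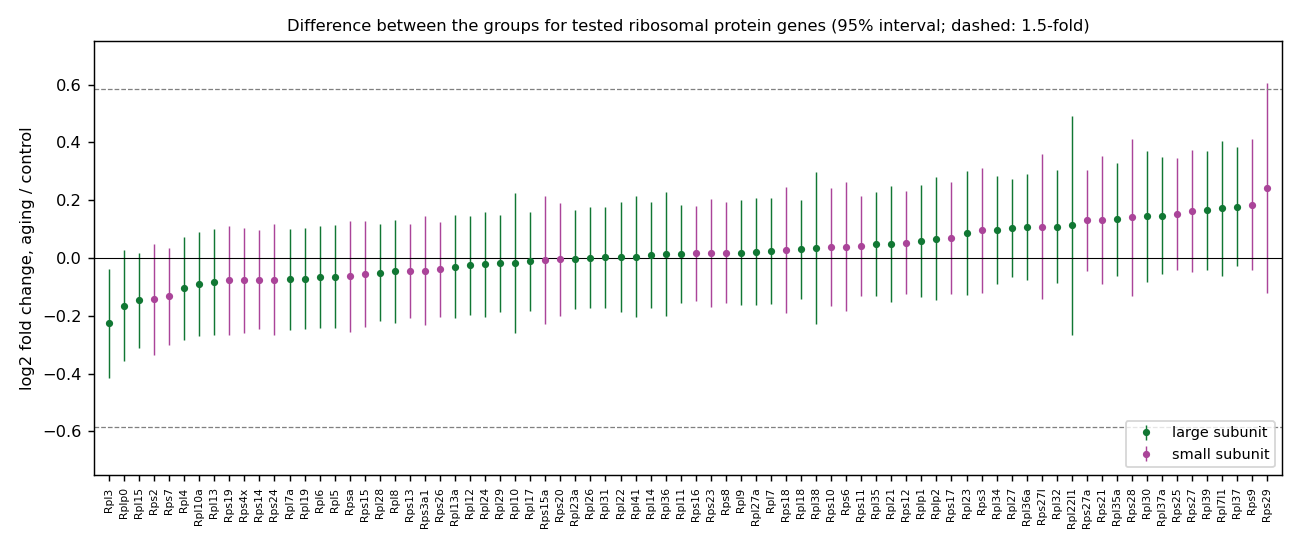
Log2 fold change of aging over control for 78 of the 80 tested genes in rising order, with the 95% interval from edgeR and dashed lines at 1.5-fold. All point estimates lie between -0.23 and 0.24, and 1 interval, that of Rps29, reaches past a dashed line.

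Rpl3, a large-subunit protein next to the site of peptide bond formation, had the lowest fold change. It stood at 405, 397 and 420.4 CPM in control and at 349, 331 and 365 CPM in aging. Every aging library was below every control library, and the log2 fold change was -0.23 ± 0.08 (SE; edgeR adjusted p = 0.107). Rpl3 passed the threshold when libraries were scaled by total count alone (edgeR adjusted p = 0.0496) and in limma on log2(FPKM + 1) (adjusted p = 0.0475), with log2 fold changes of -0.27 and -0.28.

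Rplp0 is the base of the ribosomal stalk, the arm of the large subunit that recruits translation factors. It stood at 493, 453 and 456 CPM in control and at 428, 400.0 and 422 CPM in aging, with no overlap and a log2 fold change of -0.16 ± 0.08 (SE; edgeR adjusted p = 0.216). Its partners in the stalk, Rplp1 and Rplp2, overlapped between the groups. Rplp1 stood at 153, 144 and 145 CPM in control and at 148, 146 and 167 CPM in aging. Rplp2 stood at 74.1, 64.0 and 70.9 CPM in control and at 71.8, 68.5 and 78.7 CPM in aging. Both had log2 fold changes just above 0, at 0.06 ± 0.08 and 0.07 ± 0.09 (SE). Rplp0 is also used as a reference gene in quantitative PCR.

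Rpl15, a large-subunit protein, stood at 229, 229.9 and 226 CPM in control and at 205, 209 and 205 CPM in aging. The groups did not overlap, and the log2 fold change was -0.15 ± 0.07 (SE; edgeR adjusted p = 0.204).

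At the other end stood 3 genes. Rps29, a small zinc-binding protein of the small subunit, stood at 82.8, 76.3 and 77.9 CPM in control and at 81.2, 80.3 and 119 CPM in aging. Its difference rested on aging replicate 5, since the log2 fold change was 0.24 ± 0.16 (SE; edgeR adjusted p = 0.328) with that library and 0.03 without it. Rps9, a small-subunit protein that binds early in assembly, stood at 224, 210.0 and 205 CPM in control and at 269, 238 and 219.9 CPM in aging. Aging replicate 5 lay within the control range, and the log2 fold change was 0.19 ± 0.10 (SE; edgeR adjusted p = 0.238); without aging replicate 2 it was 0.11. Rpl37, a zinc-binding protein of the large subunit, stood at 74.3, 72.5 and 75.04 CPM in control and at 79.2, 79.2 and 92.8 CPM in aging. The groups did not overlap, with a log2 fold change of 0.18 ± 0.09 (SE; edgeR adjusted p = 0.211), and 0.10 without aging replicate 5.

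The libraries of the 2 groups did not overlap for 22 of the 80 genes, 9 higher and 13 lower in aging. The share over all tested genes was 38.0%, with 19.2% higher and 18.8% lower. The 9 higher genes were Rpl27, Rps27a, Rpl35a, Rpl30, Rpl37a, Rps25, Rps27, Rpl39 and Rpl37, with log2 fold changes of 0.10 to 0.18. The 13 lower genes included Rpl3, Rplp0, Rpl15, Rps2, Rps7, Rpl4, Rps4x, Rps14, Rpl7a, Rpl19 and Rpl6, and had log2 fold changes of -0.23 to -0.06. None of these 22 passed the test.

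These genes differed in length, a pattern noticed after the values were seen. The 9 higher genes have coding sequences of 153 to 468 bases and the 13 lower ones of 453 to 1257 bases. Across the 80 genes the log2 fold change went down with coding length, with a Spearman coefficient of -0.61 and a Pearson coefficient of -0.59 with log2 length. The genes share their libraries and are not independent replicates, so no p is given. The Spearman coefficient was -0.70 over the 48 large-subunit genes and -0.48 over the 32 small-subunit genes. It was -0.12 over the 13040 tested genes with a coding length, -0.08 over the 5755 other genes no longer than the longest of the 80, and -0.18 over 78 mitochondrial ribosomal protein genes. With the length that the authors' FPKM imply in place of the coding length it was -0.43 over the 80 genes.

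Ordered by coding length, the 27 shortest genes (75 to 399 bases) had a median log2 fold change of 0.10, with 23 above 0. The 26 middle genes (405 to 564 bases) had a median of 0.01. The 27 longest (576 to 1257 bases) had a median of -0.06, with 19 below 0. Within each library, the median deviation of the short genes minus that of the long genes was -0.07, -0.08 and -0.05 on the log2 scale in control, and 0.03, 0.01 and 0.16 in aging. The groups did not overlap in this difference, and aging replicate 5 stood apart from the other libraries. The difference was formed after the pattern was seen in these same libraries, so the lack of overlap is no separate evidence for it. Without aging replicate 5 the median of the short genes was 0.01, that of the long genes -0.08, the Spearman coefficient -0.47 and the Pearson coefficient -0.39.

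**Figure D3:**
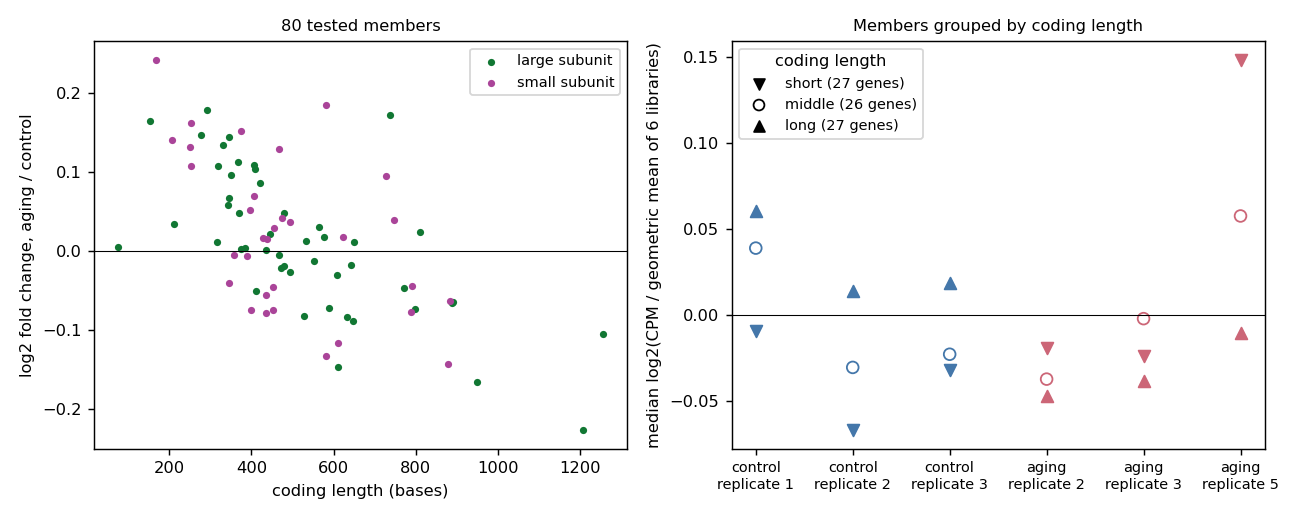
Left, log2 fold change of aging over control against coding length in bases for the 80 tested genes. Right, for each library, the median over short, middle and long genes of log2 CPM relative to the geometric mean of the 6 libraries. The short genes lie below the long genes in the 3 control libraries and above them in the 3 aging libraries, most widely in aging replicate 5 (0.16).

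Among the libraries, aging replicate 5 held the highest CPM of 41 of the 80 genes and control replicate 1 that of 26. The neutrophil marker sum of aging replicate 5 (1629 CPM) was the lowest of the aging libraries. Its macrophage, T and NK cell and erythroid marker sums (707, 27.2 and 56.35 CPM) were the lowest of all 6 libraries. Its sinusoidal endothelial and hepatocyte marker sums (25981 and 735 CPM) were the highest of the aging libraries. The part of these other cells in its levels was not tested. The 80 genes varied little within groups. Their median coefficient of variation was 3.20% in control and 4.94% in aging, against 6.35% and 9.49% for all tested genes at or above the lowest of them, and the aging value was 2.28% without aging replicate 5. That wider set was bounded only from below, at 20.8 CPM, and was not matched to the level of the 80 genes.

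Some near copies of ribosomal proteins can replace their partners in ribosomes. There were 4 pairs of a near copy or relative and its partner with enough counts to compare. Whether each protein replaces its partner was not tested. Rpl22l1 made up 18.5%, 18.2% and 14.9% of the summed FPKM of Rpl22 and Rpl22l1 in control and 18.5%, 14.9% and 19.8% in aging. Rps27l made up 9.60%, 9.003% and 8.87% of its pair with Rps27 in control and 8.80%, 8.88% and 8.83% in aging. Rpl7l1 made up 4.60% to 7.22% of its pair with Rpl7 over all libraries. The copy or relative had the lower FPKM of its pair in every library.

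For the log2 ratio of copy to partner, the differences were 0.09 for Rpl22l1 to Rpl22 (two-sided exact permutation test, p = 0.5), -0.05 for Rps27l to Rps27 (exact p = 0.2), 0.15 for Rpl7l1 to Rpl7 (exact p = 0.3) and 0.10 for Rpl36al to Rpl36a (exact p = 0.1, the smallest this design can give). Adjusted over the 4 pairs the exact p-values were 0.4 to 0.5. Rpl36al, a close copy of Rpl36a, made up 33.3%, 32.9% and 33.8% of its pair in control and 34.8%, 34.7% and 35.5% in aging, so all 3 aging libraries were above all 3 control libraries. Reads of near copies can be assigned to either gene, and how the counting treated them is not stated, so these splits are uncertain.

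The same holds for pseudogenes. Of 9 pseudogene or retrogene entries named after ribosomal proteins, Rpl10-ps3 held 4085 to 4876 counts per library and the other 8 at most 22. Its parent gene Rpl10, a large-subunit protein added late in assembly, held 3124 to 3980 counts, so that 52.7% to 59.0% of the counts of the pair were listed under the pseudogene. The level of Rpl10 is therefore uncertain. Its log2 fold change was -0.02 ± 0.10 (SE; edgeR adjusted p = 0.93), and that of Rpl10-ps3 was -0.06 ± 0.08 (SE; edgeR adjusted p = 0.619).

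Fau, Rpl36al and Rack1 were described outside the symbol rule. Fau encodes a ubiquitin-like protein fused to the small-subunit protein eS30. It stood at 116, 111 and 109 CPM in control and at 141, 127 and 127 CPM in aging, without overlap, and did not pass (log2 fold change 0.24 ± 0.08, SE; edgeR adjusted p = 0.0874). Rpl36al had a log2 fold change of 0.21 ± 0.10 (SE; edgeR adjusted p = 0.178). Rack1, a scaffold on the small subunit, had a log2 fold change of -0.08 ± 0.08 (SE; edgeR adjusted p = 0.505).

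Outside the ribosome itself, 228 tested genes of the translation machinery were set beside the ribosomal proteins. Of these, 8 rose and 4 fell, 5.26% in all beside 12.8% of all tested genes. None of these lists is independent of earlier results on these libraries.

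Among 23 regulators of mTORC1 and TOP messages, 2 rose and 3 fell, with a median log2 fold change of -0.11. That is 21.7% of the list, beside 12.8% of all tested genes. Ddit4, a stress-induced inhibitor of mTORC1 also called REDD1, stood at 163, 181 and 169 CPM in control and at 42.5, 41.6 and 56.1 CPM in aging (log2 fold change -1.87 ± 0.13, SE; edgeR adjusted p = 0.00164). The sestrins, which inhibit mTORC1 when leucine is low, went in opposite directions. Sesn2 rose from 33.8, 39.0 and 48.3 CPM to 83.3, 73.0 and 76.5 CPM, and Sesn1 fell from 83.8, 89.4 and 95.6 CPM to 65.4, 58.2 and 41.2 CPM. Deptor, a subunit that inhibits mTOR, fell (log2 fold change -0.70 ± 0.16, SE; edgeR adjusted p = 0.0280), and Rps6ka3, the kinase RSK2, rose (0.99 ± 0.22, SE; edgeR adjusted p = 0.0357). Of the genes that passed, 3 are inhibitors of mTORC1 that fell and 1 an inhibitor that rose. Among those that did not pass, Mtor, Rptor, Tsc1, Tsc2 and Akt1s1 had log2 fold changes of -0.26, -0.16, -0.15, -0.15 and -0.25, and Rheb had 0.31. The activity of mTORC1 was not tested. Ddit4 passed when any single library was left out, and Sesn2 missed the threshold without control replicate 2 (edgeR adjusted p = 0.0523). Deptor, Sesn1 and Rps6ka3 missed it without any 1 control library or aging replicate 3 (edgeR adjusted p 0.0534 to 0.118).

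Of 35 initiation factors 1 rose, Eif1a, which helps select the start codon. It stood at 38.1, 33.5 and 38.2 CPM in control and at 50.5, 61.5 and 82.1 CPM in aging (log2 fold change 0.82 ± 0.17, SE; edgeR adjusted p = 0.0268), and the median of the list was -0.06. Of 12 genes listed as elongation factors or related to them 1 rose, Eef1e1. Despite its symbol, Eef1e1 encodes a scaffold of the aminoacyl-tRNA synthetase complex and not an elongation factor. It stood at 4.05, 3.60 and 4.60 CPM in control and at 8.57, 7.68 and 7.97 CPM in aging (log2 fold change 0.98 ± 0.17, SE; edgeR adjusted p = 0.0133), with a list median of 0.00. Eef1e1 missed the threshold without control replicate 2 (edgeR adjusted p = 0.0618), and Eif1a without any 1 control library or aging replicate 3 (edgeR adjusted p 0.0598 to 0.107).

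Of 65 ribosome biogenesis genes 1 rose and 1 fell, with a median of 0.11. Rrs1, an assembly factor of the large subunit, stood at 17.1, 16.3 and 19.5 CPM in control and at 21.5, 28.8 and 31.2 CPM in aging. Nmd3, the export adaptor of the large subunit, stood at 19.3, 17.0 and 20.02 CPM in control and at 9.50, 9.75 and 14.7 CPM in aging. Of 15 measured RNA polymerase I genes 1 rose, the subunit gene Znrd1 (log2 fold change 0.45 ± 0.12, SE; median of the list 0.03). Of 78 mitochondrial ribosomal protein genes 2 rose, with a median of -0.02: Mrpl33 from 7.45, 7.25 and 6.42 CPM to 15.4, 13.6 and 14.5 CPM, and Mrps25 by 0.45 ± 0.12 on the log2 scale (SE). Mrpl33 passed when any single library was left out. Rrs1 missed the threshold when any library but aging replicate 2 was left out, Nmd3 and Mrps25 when any but aging replicate 5 was, and Znrd1 when any was (edgeR adjusted p 0.0609 to 0.155).

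**Figure D4:**
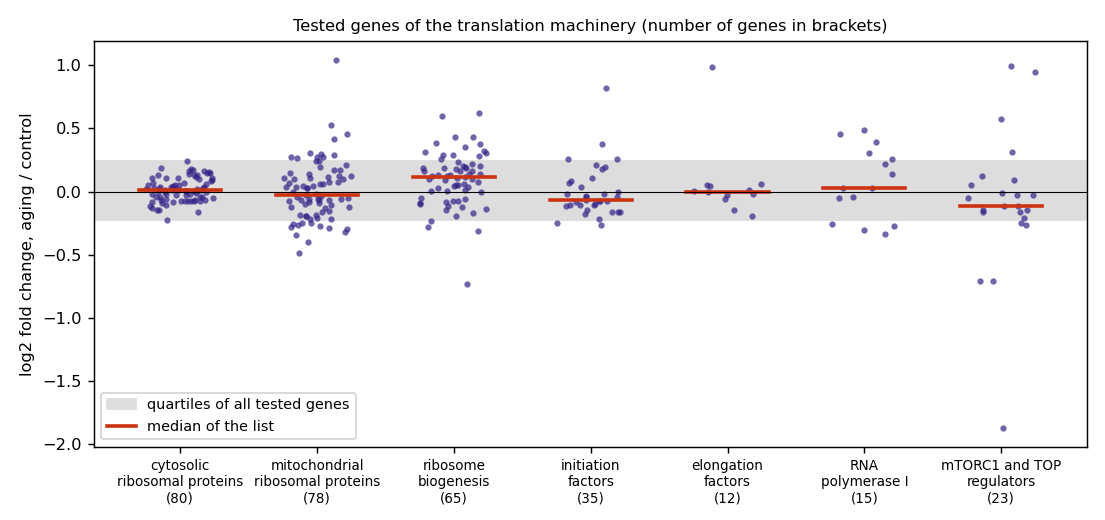
Log2 fold change of aging over control for each tested gene of the ribosomal proteins and of 6 lists of the translation machinery, with 1 point per gene, the median of each list and a band from the lower to the upper quartile of all tested genes. All ribosomal proteins lie between -0.23 and 0.24, while Ddit4 at -1.87 and Mrpl33 at 1.04 are the extremes of the other lists.

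None of 6 regulators of ribosomal protein genes passed, with a median of -0.04. Zbtb7a, a transcriptional repressor, had a log2 fold change of -0.31 ± 0.09 (SE; edgeR adjusted p = 0.0676), and Gabpa, a subunit of the ETS factor GABP, had 0.12 ± 0.09 (SE; edgeR adjusted p = 0.4). None of 8 genes of the p53 response to nucleolar stress passed, with a median of 0.11. Zmat3 and Bbc3, both p53 targets, had log2 fold changes of 0.40 ± 0.11 and -0.48 ± 0.19 (SE; edgeR adjusted p = 0.0608 and 0.133).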

How the data were processed

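Per the labels, mRNA was selected on oligo(dT) beads from total RNA. The submitters' processing notes name, without roles, RSEM, HISAT2, Bowtie2, StringTie 1.3.1 and fastp 0.18.0. For the genome build, the strand setting and reads that map more than once, the upstream choice is not given in the sources used. Per the file headers, the deposited table holds a count and an FPKM value per gene and library. The counts are whole numbers, and the FPKM are the authors' values. Group means that the authors deposited, treated as a score, were left out. Their own comparison (log2 ratio, p-value, FDR) was deposited too and is printed only in sentences that credit it to their table.

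Genes were tested on the deposited counts with edgeR 4.0.16 in R 4.3.3 (filterByExpr at min.count 10, min.total.count 15, TMM factors of 0.963 to 1.05, robust quasi-likelihood fit with group as the term, Benjamini-Hochberg adjustment over 13096 genes, threshold 0.05). Intervals are 95%. CPM use the TMM factors. Sums and ratios were tested by two-sided exact permutation over libraries; ratios used counts plus 0.5. Alternatives used DESeq2 1.42.0, and limma 3.58.1 on log2(FPKM + 1) or log2(FPKM + 0.1). The edgeR test was tried on simulated counts. Coding lengths are those of GENCODE M21 by Ensembl ID, and promoter sequences are from RefSeq. No library repeated another of its group: each pair differed beyond sampling noise.

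The genes, lists and tests were chosen with earlier results of these data known. Genes named with values are the 3 highest and 3 lowest fold changes, the 5 highest and 3 lowest mean FPKM, the stalk, near copies and their partners, 3 genes outside the symbol rule, and up to 6 genes that passed per list, or else its 2 smallest p-values. Others, among them Rpl13a and the 22 genes without overlap, were chosen after their values were seen. The values of a few genes are not reported here by name, and the plots by gene leave them out.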

Additional observations from a re-analysis of the deposited data

How the results depend on the processing

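No ribosomal protein was called higher under any alternative run. The count called lower was 0, except for 1 (Rpl3) with total-count scaling, with limma on log2(FPKM + 1) and with limma on log2(FPKM + 0.1) (adjusted p 0.0496, 0.0475 and 0.0462). Total-count, upper-quartile and FPKM scaling moved the median of the 80 genes to between -0.03 and -0.02, and took the share of higher calls among all calls from 56.4% to between 45.9% and 47.9%. Over all genes, 470 were higher with limma without a filter, against 946. Leaving out 1 library gave 146 to 1253 genes higher and 122 to 868 lower. Of the 228 translation genes it gave 1 to 8 higher, against 8, and 1 to 9 lower, against 4. Those higher were 5 with limma without a filter. Those lower were 10 with upper-quartile factors, 10 with total count and 8 with log2(FPKM + 0.1). The causes were not tested.

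Groups share only replicate numbers 2 and 3, and same-numbered libraries did not deviate together (correlations of -0.06 and -0.04), so the numbers were not taken as pairs. With a replicate block 0 ribosomal proteins, 1048 genes higher and 650 lower, and 5 translation genes higher and 6 lower were called. The Pearson coefficient of the fold changes with log2 coding length, -0.59 across the 80 genes, was -0.36 with the block.

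The sign turned for values near 0. Rps6 (0.04) was -0.0067 with upper-quartile factors, -0.0012 with total count, -0.0030 in the limma fits, -0.0288 with the replicate block and -0.0422 to 0.0966 with 1 library left out. Rps20 (-0.0050) was 0.0021 in DESeq2, 0.0539 with the block and -0.0661 to 0.0563 with 1 library left out. Rpl7 (0.02) was -0.0214, -0.0143, -0.0156, -0.0157 and -0.0156 with upper-quartile factors, total count and the 3 limma fits. Rpl22 (0.0038) was -0.0422, -0.0349 and -0.0486 with upper-quartile factors, total count and the block, and -0.0324 to 0.0548 with 1 library left out. With 1 library left out, Rpl22l1 ranged from -0.0381 to 0.267, Rpl10 from -0.0906 to 0.0756 and Rplp1 from -0.0032 to 0.0988. The summed CPM difference then ranged from -462.8 to 78.6 and the log2 ratio of Rpl22l1 to Rpl22 from -0.0197 to 0.226. Every tested ribosomal protein gene had at least 287 counts in each library (Rpl22l1 the fewest), and with 3 libraries per group 7 of the 80 intervals still reach past 1.3-fold.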
